A study of Homo sapiens with 6 samples.

Results

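The cyclins, kinases and regulators that bring a cell through the G1 restriction point were followed in cells labelled HCT116 after silencing of AC010789.1. The group held 10 genes, chosen by their GENCODE v29 symbols: the D-type cyclins CCND1, CCND2 and CCND3, the E-type cyclins CCNE1 and CCNE2, the kinases CDK2, CDK4 and CDK6, the retinoblastoma gene RB1 and the transcription factor gene E2F1. All 10 were listed among the 18750 genes of the count table, and 9 of them were among the 13750 genes that passed the filter on low counts and were tested. CCND2 did not pass the filter.

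HCT116 is an established human colorectal cancer line, grown here in DMEM with fetal bovine serum. Cells of the siRNA-NC group received a negative control siRNA, and cells of the si-AC010789.1 group received an siRNA against the long noncoding RNA AC010789.1. Each group had 3 replicates, both groups were transfected, and no time after transfection is given in the labels. The study calls the replicates biological repeats and names differing cell generations as a possible source of spread between them, while the labels give only their numbers. The p-values below measure the spread between these libraries. Read counts per transcript were summed per gene, and library totals lay between 11277222 and 13443866 counts. Levels are given as CPM, the counts of a gene scaled to a common library total with TMM factors. The level of AC010789.1 was not analysed here, so the labels were not checked against the targeted RNA, and libraries called silenced below are those labelled si-AC010789.1.

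Markers of the labelled cell line were checked before the results. Of 7 markers of a colorectal epithelial line, KRT8 (719 ± 137 CPM in siRNA-NC, SD, n = 3) and KRT18 (395 ± 17.9 CPM) were high. EPCAM, a surface protein of colorectal epithelium, stood at only 3.62 ± 0.480 CPM, LGALS4 stood at 0.125 CPM with 0 to 3 counts a library, and KRT19, VIL1 and CDX2 were not listed in the table analysed here. The summed level of the list was 985 to 1229 CPM in siRNA-NC and 801 to 1041 CPM in si-AC010789.1. Fibroblast markers were measurable in 3 of 4 cases, with COL1A1 at 43.3 ± 4.82 CPM and PDGFRB at 17.0 ± 0.621 CPM, and their sum was 55.7 to 66.0 CPM in siRNA-NC and 61.3 to 66.9 CPM in si-AC010789.1. Blood cell markers summed to 6.08 to 9.05 and 2.59 to 5.35 CPM in the same order of groups, with PTPRC and CD3E not listed. This sum was lower in every silenced library, mainly through CD68 (6.73 ± 1.49 and 3.29 ± 1.29 CPM), and its part in the results below was not tested. Endothelial markers summed to at most 2.51 CPM in any library. These markers go against the label in part, so the libraries are named below only as they were labelled.

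Passage through the restriction point commits a cell to divide. D-type cyclins bind CDK4 and CDK6, and these complexes begin to phosphorylate the retinoblastoma protein, which otherwise holds E2F factors inactive. Released E2F drives transcription of the E-type cyclins and of genes for DNA synthesis, and cyclin E with CDK2 completes the phosphorylation, while inhibitors such as p21 and p16 block the kinases. CCND1 is known in colorectal cancer as a gene that growth factor and Wnt signals induce.

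Of the 9 genes tested, CCND1 rose and CDK6 fell after silencing of AC010789.1. CCND1 went from 190 ± 13.0 to 253 ± 10.5 CPM, an increase of 33.2%, and CDK6 from 425 ± 15.9 to 315 ± 10.4 CPM, a change of -25.9%. Neither call held when any 1 library was left out, or with the replicate numbers fitted as a block. E2F1 (-0.29 on the log2 scale) and CDK2 (0.19) differed at an unadjusted p only, and the other 5 genes tested did not pass either threshold. The study's own criteria, a log2 fold change beyond 1 in size together with an unadjusted p below 0.05, were met by 0 of the 9 genes, against 0.778% of all genes tested.

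The sequences that follow are shown because the values refer to them. The first is the primer pair with which the study measured Cyclin D1, listed so that the transcripts it reads can be set beside the counts. The forward primer lies at chr11:69641368-69641387 and the reverse primer at chr11:69643078-69643097 (GRCh38), and their product of 211 bases spans bases 282 to 492 of the transcript ENST00000227507.
Cyclin D1 forward: gatgccaacctcctcaacga
Cyclin D1 reverse: ggaagcggtccaggtagttc
Both primers matched 3 of the 6 annotated CCND1 transcripts, ENST00000227507 and the retained-intron transcripts ENST00000535993 and ENST00000539241.

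The second is miR-432-3p, the microRNA that the study examined together with AC010789.1, encoded at chr14:100884544-100884564 on the plus strand (RefSeq, GRCh38.p14). Capitals mark its seed, bases 2 to 8.
miR-432-3p: cUGGAUGGcuccuccaugucu
The third set holds the seed matches in the 3′ UTRs of the 10 genes, read from the coding transcript with the most counts. The letters CCATCCA (match to the whole seed) or CATCCAA (match to bases 2 to 7, followed by A) were searched on the transcript strand, and capitals mark them. They occurred in 3 of the 10 genes and in 2169 of 13857 genes with a 3′ UTR (15.7%).
CCND1, chr11:69652002-69652031, plus strand: accccaacaaaCCATCCAgtgacaaaccat
CCND1, chr11:69652017-69652046, plus strand: ccagtgacaaaCCATCCAgtggaggtttgt
CCND2, chr12:4304451-4304480, plus strand: tgttcatgcagCCATCCAtttgtgcaaaat
RB1, chr13:48480784-48480813, plus strand: attattttcttCATCCAActtatgttttta
The CCND1 matches began at bases 731 and 746 of a 3′ UTR of 3192 bases. The CDK6 3′ UTR, at 10219 bases the longest of the 10, held 0 matches. The level of miR-432-3p was not analysed here, and a match in letters says nothing of binding.

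The fourth is the E2F1 promoter, shown because E2F factors are known to bind it. The window runs from 250 bases before to 50 bases after the start of E2F1 (RefSeq, GRCh38.p14, chr20:33686336-33686635, minus strand). Capitals mark the core letters of an E2F site on either strand (TTTCCCG, its variant TTTCGCG, its variant TTTGCCG and its variant TTTGGCG), found at positions -37, -32 and -20 from the start, the first and second of which overlap.
E2F1 promoter: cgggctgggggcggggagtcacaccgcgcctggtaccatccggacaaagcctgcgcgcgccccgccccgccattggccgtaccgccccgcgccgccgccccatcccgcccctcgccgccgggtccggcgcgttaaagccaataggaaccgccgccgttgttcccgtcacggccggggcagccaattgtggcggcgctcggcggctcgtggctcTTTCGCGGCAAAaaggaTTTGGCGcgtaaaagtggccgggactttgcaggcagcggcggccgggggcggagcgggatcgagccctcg
These letters stood in 3045 of 35116 promoter windows of the same length (8.67%), and at least 2 of them in 239 windows (0.681%). The table of promoter windows held 9 windows of these genes: 3 of CCND3, 2 of CDK6 and 1 each of CCNE1, CDK4, E2F1 and RB1. The RB1 window (chr13:48476200-48476499) lies inside the gene, far from its annotated start at 48303726, so the promoter at that start was not searched. Of the other 8 windows, that of E2F1 was the only one that held the letters. Some of these also lay inside the gene and did not reach its outermost annotated start. They were the 3 of CCND3, that of CDK4 (chr12:57752261-57752560) and 1 of CDK6 (chr7:92833910-92834209).

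**Figure D1:**
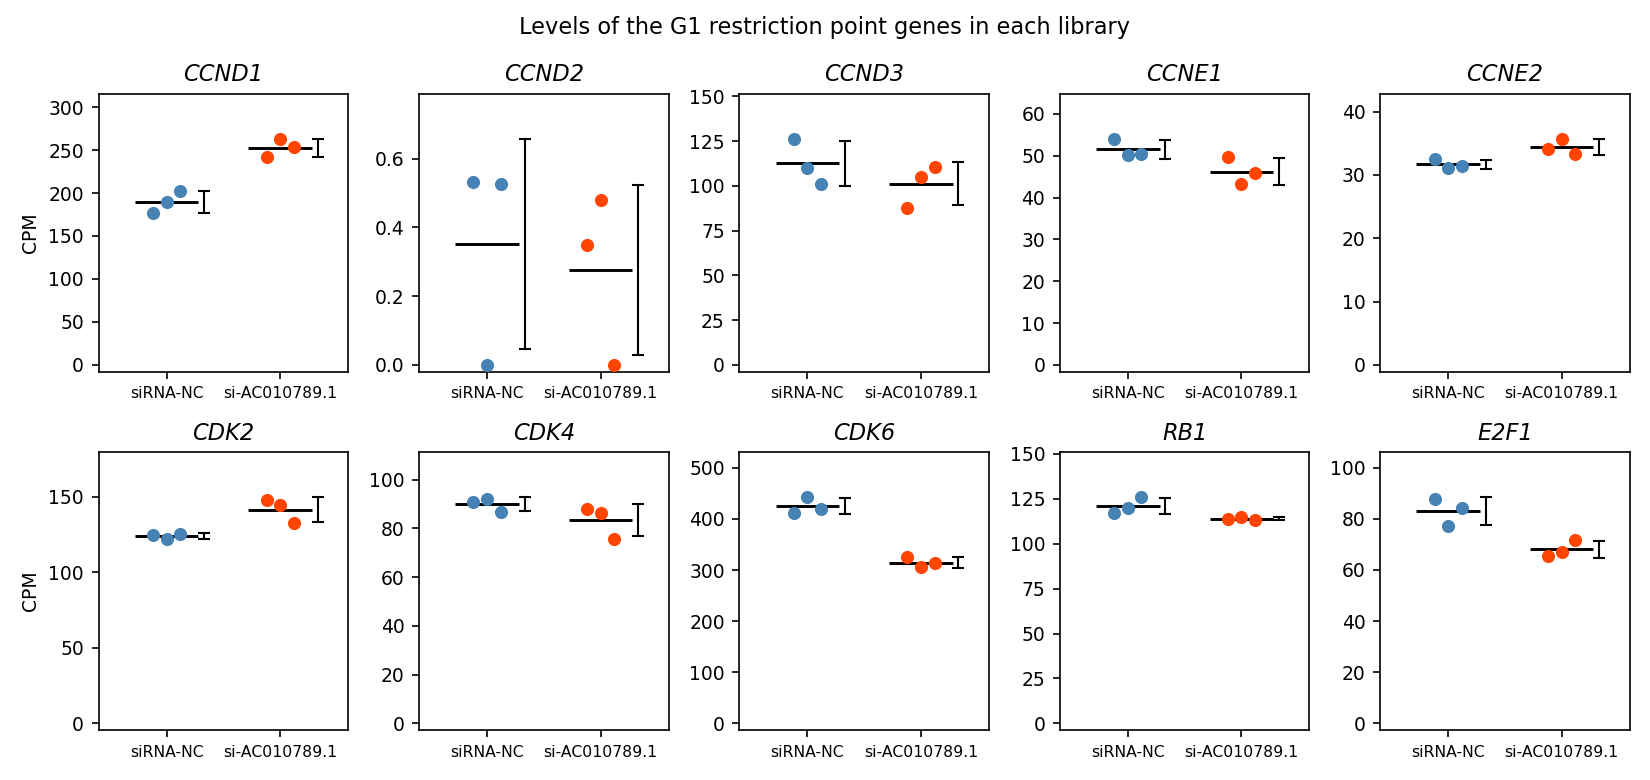
CPM (vertical axis of each panel, starting near 0) of the 10 genes in the 3 siRNA-NC and the 3 si-AC010789.1 libraries. Points are libraries, horizontal lines are group means and bars are 1 SD. The groups do not overlap for 7 genes (CCND1, CCNE2 and CDK2 higher, CCNE1, CDK6, RB1 and E2F1 lower after silencing), as for 25.1% of all genes tested. Of the 7, only CCND1 and CDK6 passed the adjusted threshold, and CCND2 stays under 1 CPM.

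Of the D-type cyclins, the growth-factor-responsive partners of CDK4 and CDK6, CCND1 alone passed the adjusted threshold, and the difference between their changes was not tested. CCND1 (ENSG00000110092.3, chr11:69641087-69654474, plus strand) stood at 176.5, 189.8 and 202.5 CPM in siRNA-NC replicates 1, 2 and 3. It stood at 241.5, 262.5 and 253.9 CPM in si-AC010789.1 replicates 1, 2 and 3. All 3 silenced libraries were above all 3 controls. The log2 fold change was 0.41 (SE 0.063, 95% interval 0.26 to 0.57), with an adjusted p of 0.0473 in edgeR's quasi-likelihood test. In bulk RNA, a change in the number of cells that express a gene and in the RNA per cell cannot be told apart. Leaving out any 1 of the 6 libraries ended the call, at log2 fold changes of 0.37 to 0.46 and adjusted p from 0.0771 (without siRNA-NC replicate 3) to 0.157 (without si-AC010789.1 replicate 2) in edgeR. LTO1, on the opposite strand, shares 497 exon bases with CCND1 and stood at 15.4 and 19.6 CPM in siRNA-NC and si-AC010789.1. Whether the counting used strand is not given in the sources used here, so a small part of these counts may belong to either gene.

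CCND3 (chr6:41934933-42050357, minus strand), a D-type cyclin best known from lymphoid cells, had overlapping groups. It stood at 126.4, 110.2 and 101.4 CPM in the controls and at 87.8, 105.1 and 110.9 CPM after silencing. Its log2 fold change was -0.15 (SE 0.115, 95% interval -0.43 to 0.12, adjusted p 0.554), and it was -0.06 without replicate 1 of either group. CCND2 (chr12:4273772-4305350, plus strand), the remaining D-type cyclin, gave 6, 0 and 7 counts in the controls and 4, 6 and 0 counts after silencing. It was at 0 in siRNA-NC replicate 2 and si-AC010789.1 replicate 3, which allows a level of up to 0.225 and 0.243 CPM, and these limits cover counting error only. Its counts came from ENST00000261254 (0 to 6 a library) and the retained-intron transcript ENST00000536795 (0 to 2). A difference in CCND2 was not detectable at this depth.

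Among the kinase partners of the D-type cyclins, CDK6 (chr7:92604921-92836594, minus strand) had the smallest p of the group. It stood at 411.9, 442.5 and 419.9 CPM in the controls and at 325.8, 305.1 and 313.2 CPM after silencing. The lowest control was well above the highest silenced library. The log2 fold change was -0.43 (SE 0.047, 95% interval -0.55 to -0.32, adjusted p 0.0216), and CDK6 ranked 37 of 13750 genes by p, where CCND1 ranked 126. Leaving out any 1 library also ended the call for CDK6, at log2 fold changes of -0.46 to -0.40 and adjusted p from 0.0607 (without si-AC010789.1 replicate 1) to 0.0962 (without si-AC010789.1 replicate 3).

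CDK4 (chr12:57747727-57756013, minus strand), the close relative of CDK6, stood at 90.9, 92.1 and 86.5 CPM in the controls and at 87.8, 86.4 and 75.8 CPM after silencing. The groups overlapped, and the log2 fold change was -0.11 (SE 0.073, adjusted p 0.505), or -0.05 without si-AC010789.1 replicate 3 and -0.17 with protein-coding transcripts only. CDK4 shares 1369 exon bases with TSPAN31 on the opposite strand, which stood at 7.86 and 8.79 CPM in siRNA-NC and si-AC010789.1, so its level carries that uncertainty.

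The E-type cyclins, which partner CDK2 late in G1, lay in opposite directions, and neither passed a threshold. CCNE1 (chr19:29811898-29824308, plus strand) stood at 54.1, 50.1 and 50.3 CPM in the controls and at 49.7, 43.1 and 45.8 CPM after silencing, a log2 fold change of -0.16 (SE 0.078, adjusted p 0.372). CCNE2 (chr8:94879770-94896678, minus strand) stood at 32.4, 31.1 and 31.4 CPM against 34.1, 35.7 and 33.3 CPM, a log2 fold change of 0.12 (SE 0.070, adjusted p 0.443). For both genes the groups did not overlap, and for CCNE1 they nearly touched, at 50.1 and 49.7 CPM. CCNE2 shares 1629 exon bases with INTS8 on the opposite strand (89.7 and 82.9 CPM in the same order of groups), a gene with a higher level than its own.

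CDK2 (chr12:55966769-55972784, plus strand), the kinase of the E-type cyclins, stood at 124.4, 122.0 and 125.5 CPM in the controls and at 147.8, 144.3 and 132.2 CPM after silencing. All silenced libraries were above the controls, with a log2 fold change of 0.19 (SE 0.056, 95% interval 0.06 to 0.32), an unadjusted p of 0.013 and an adjusted p of 0.170 in edgeR. The size of this change depended on how transcripts were summed, at 0.29 with protein-coding transcripts only and 0.06 with length-scaled sums. E2F1 (chr20:33675683-33686404, minus strand), whose promoter is printed above, stood at 87.8, 77.1 and 84.0 CPM against 65.4, 67.0 and 71.7 CPM. All silenced libraries were below the controls, with a log2 fold change of -0.29 (SE 0.073, 95% interval -0.46 to -0.11), an unadjusted p of 0.0063 and an adjusted p of 0.130 in edgeR. RB1 (chr13:48303726-48599436, plus strand) stood at 117.2, 119.8 and 125.8 CPM against 114.0, 114.7 and 113.2 CPM. Its groups were apart by a small margin, and the log2 fold change was -0.09 (SE 0.048, adjusted p 0.420).

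Against the background of all genes, 2 of the 9 genes tested had an adjusted p under 0.05, compared with 0.982% of all genes tested. The single gene called higher stands beside 0.284% of genes called higher, and the single gene called lower beside 0.698% called lower. An unadjusted p under 0.05 was found for 4 of the 9 genes (CCND1, CDK6, E2F1 and CDK2) and for 17.2% of all genes. The groups did not overlap for 7 of the 9 genes and for 25.1% of all genes. Each of the 7 gave 0.1 in a two-sided exact permutation test, which cannot go lower with 3 against 3 libraries. Log2 fold changes were positive for 3 genes and negative for 6, with a median of -0.11 beside -0.00066 over all genes tested. The genes were chosen as a pathway with earlier results known, and these counts are a description of them.

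**Figure D2:**
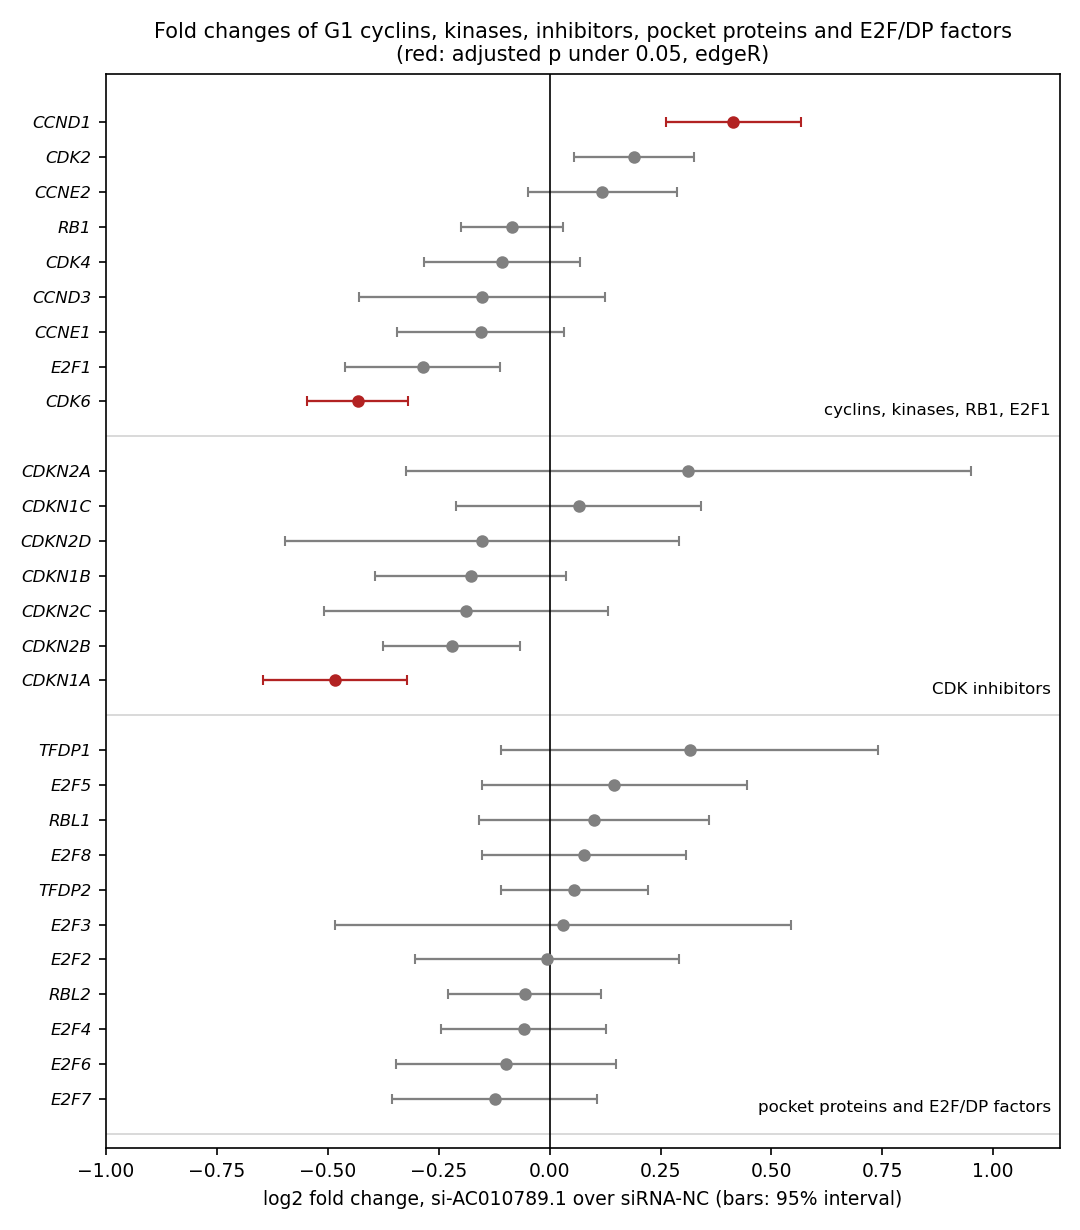
Log2 fold changes (horizontal axis, si-AC010789.1 over siRNA-NC) with 95% intervals for the 9 genes tested, the CDK inhibitors and the pocket proteins and E2F/DP factors. Red marks an adjusted p under 0.05: CCND1 at 0.41, CDK6 at -0.43 and CDKN1A at -0.48.

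Levels of different genes were compared per length, as TPM, computed from the counts and length of each transcript and scaled to a common total. In siRNA-NC the order was CDK4 (144 ± 28.4 TPM, n = 3), CCND3 (131 ± 10.3), CDK2 (125 ± 9.34), CCND1 (93.0 ± 3.47), CCNE1 (79.8 ± 5.60), CDK6 (76.9 ± 2.82), E2F1 (64.0 ± 4.20), RB1 (49.8 ± 1.56), CCNE2 (26.4 ± 1.19) and CCND2 (0.257 ± 0.317). CDK4, CCND3 and CDK2 were neighbours whose library values overlapped, and so were CCNE1 and CDK6. CDK6, highest of the 10 genes in CPM, was only sixth in TPM, since its main transcript is 11612 bases long. After silencing, CCND1 moved from rank 4 to rank 3 with 125 ± 6.70 TPM, above CCND3 at 117 ± 16.8 TPM by the mean, though the libraries of the 2 genes overlapped and CCND3 was the higher in replicate 3, and CDK6 stayed at rank 6 with 58.8 ± 2.36 TPM. With the length of the longest transcript in place of each transcript's own, CDK4 stood at 109 TPM and CCND1 at 111 TPM in siRNA-NC. CCNE1, at 63.6 TPM, then stood below CDK6 (92.2 TPM) and E2F1 (83.6 TPM). After silencing CCND1 then had the highest mean, at 148 TPM, above CDK2 at 138 TPM. The order of the genes and the rank of CCND1 thus depend on this choice.

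Shares within a library set these levels against each other on the TPM scale, and a ratio of CDK6 to CCND1 did so on counts. Both were chosen after the values of the genes were seen. CCND1 made up 38.6%, 42.2% and 43.8% of the summed D-type cyclins in the controls and 52.4%, 54.6% and 48.3% after silencing. The shares did not overlap. The summed level of the D-type cyclins was 224 ± 7.52 TPM and 242 ± 20.1 TPM, and the libraries of the groups overlapped. CDK6 made up 35.2% ± 4.82 of CDK4 and CDK6 in the controls and 31.1% ± 4.17 after silencing, with overlap. The overlap lay between siRNA-NC replicate 1, at 29.6%, and si-AC010789.1 replicate 3, at 35.9%. Replicates 2 and 3 of the controls stood at 37.7% and 38.2%, and silenced replicates 1 and 2 at 28.9% and 28.5%. In siRNA-NC replicate 1 CDK4 stood at 176 TPM but at 90.9 CPM, near the other controls in CPM. A share of CDK6 on counts was not computed. CDK6 gave 2.33, 2.33 and 2.07 counts per CCND1 count in the controls and 1.35, 1.16 and 1.23 after silencing, so the ratio was lower in all 3 silenced libraries. This ratio restates the changes of both genes. Its two-sided exact permutation test gave 0.1, the lowest value possible with 3 against 3 libraries. The ratio is not scaled for length, so it does not rank the 2 genes by level.

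**Figure D3:**
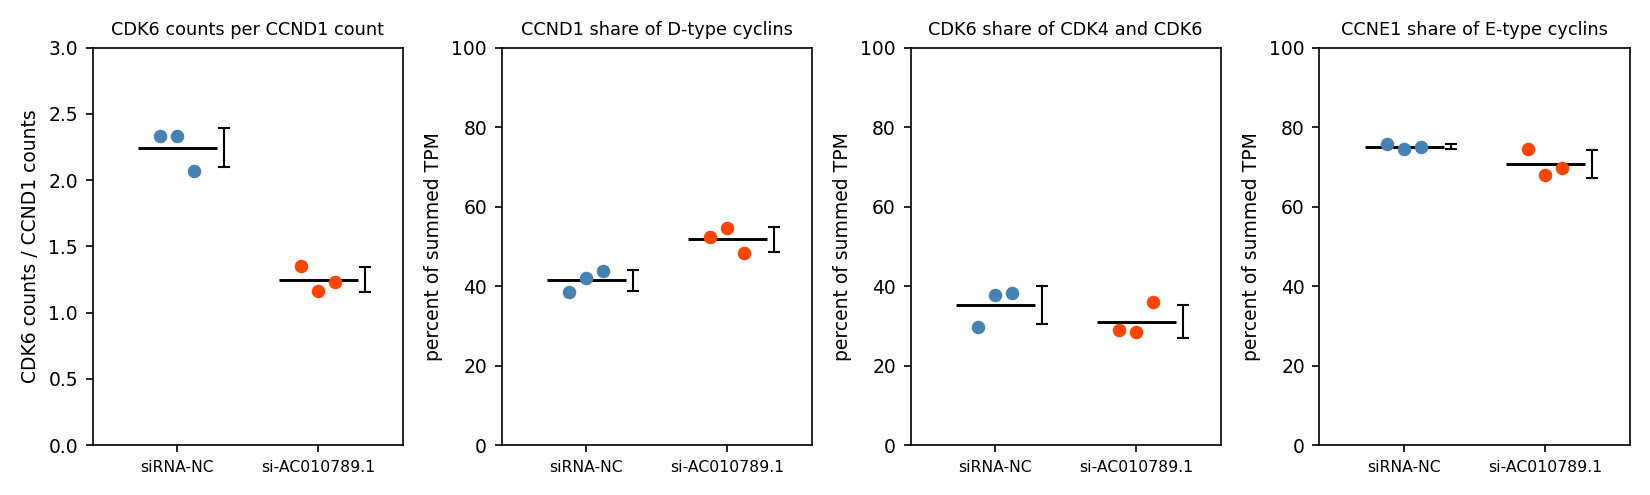
Ratios and shares within each library (points), with group means (lines) and 1 SD (bars), for CDK6 counts per CCND1 count and for 3 shares of summed TPM in percent. The ratio, on counts not scaled for length, falls from 2.25 to 1.25 on average. The CCND1 share of D-type cyclins stands at 41.5% and 51.8%, while the other 2 shares overlap between groups.

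The counts of single transcripts were set beside the sums. The table listed 73 of the 90 transcripts that GENCODE v29 gives for these genes, and 31 of them were tested. None of the 31 passed an adjusted p of 0.05 in edgeR, where 0.0135% of all 44281 transcripts tested did. An unadjusted p under 0.05 was found for 5 of the 31 and for 5.74% of all transcripts. DESeq2 called 2 of the 31 and 1.55% of all transcripts to which it gave an adjusted p. The fitted biological coefficient of variation, the relative spread between replicates, was 0.698 for transcripts and 0.170 for genes. The groups did not overlap for 10 of the 31 transcripts and for 14.0% of all transcripts tested.

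CCND1, CDK6, RB1 and E2F1 were each read almost wholly from 1 transcript. ENST00000227507, which the Cyclin D1 primers match, held 97.7% to 98.6% of the CCND1 counts, with a log2 fold change of 0.40 (SE 0.083, adjusted p 0.432 over transcripts). ENST00000265734 held 98.0% to 99.2% of the CDK6 counts, with a log2 fold change of -0.45 (SE 0.060, adjusted p 0.167). ENST00000267163 held 99.2% to 99.8% of the RB1 counts, and ENST00000343380 was the only E2F1 transcript. For these genes the sums and the main transcript gave nearly the same fold change.

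CCND3, CDK4 and CCNE1 were divided among several transcripts, and the division differed between libraries of 1 group. For CCND3, ENST00000414200 gave 768, 876 and 612 counts in the controls and 210, 14 and 545 after silencing, and ENST00000372991 gave 537, 495 and 475 against 508, 1007 and 529. The first was lower in all silenced libraries, but with a log2 fold change of -1.51 (SE 1.108) its adjusted p was 0.962. In si-AC010789.1 replicate 2 alone, ENST00000372991 held 76.6% of the CCND3 counts, ENST00000414200 1.06% and ENST00000372988 14.1%. ENST00000510503 held 2.33% to 23.9% over the libraries.

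For CDK4, the main coding transcript ENST00000257904 held 31.7% of the counts in siRNA-NC replicate 1 and 52.2% to 71.9% in the other libraries. In siRNA-NC replicate 1 ENST00000552254, of 769 bases, held 45.8%, while in the other 2 controls it held 2.13% and 2.69%. After silencing it held 18.2% in replicate 1 and at most 3.60% in replicates 2 and 3. ENST00000547281 held up to 13.0%, ENST00000552388 up to 20.1% (0 counts in replicate 1 of both groups) and ENST00000553237 up to 10.4% of the counts in a library. The sums of CDK4 varied far less, from 75.8 to 92.1 CPM.

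For CCNE1, ENST00000576532 held 51.1% to 61.9% and ENST00000262643 held 14.9% to 32.7% of the counts. ENST00000574121 and ENST00000444983 reached 10.2% and 11.5% in 1 library each. For CCNE2, ENST00000308108 held 79.2% to 93.1%, and ENST00000520509 reached 13.6% in siRNA-NC replicate 2.

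CDK2 was read mainly from ENST00000266970, which held 65.8% to 84.4% of its counts. The noncoding transcript ENST00000556146 gave 170, 22 and 130 counts in the controls and 19, 13 and 5 after silencing, with no overlap, a log2 fold change of -3.09 (SE 0.954) and an adjusted p of 0.769. The retained-intron transcript ENST00000554619 held 4.48% to 5.81% of the CDK2 counts in siRNA-NC and 7.48% to 7.80% in si-AC010789.1. Its log2 fold change was 0.79 (SE 0.229), with an adjusted p of 0.727 in edgeR. ENST00000555408 held 0.803% to 10.2% of the counts. How reads shared by transcripts were divided is not given in the sources used here.

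**Figure D4:**
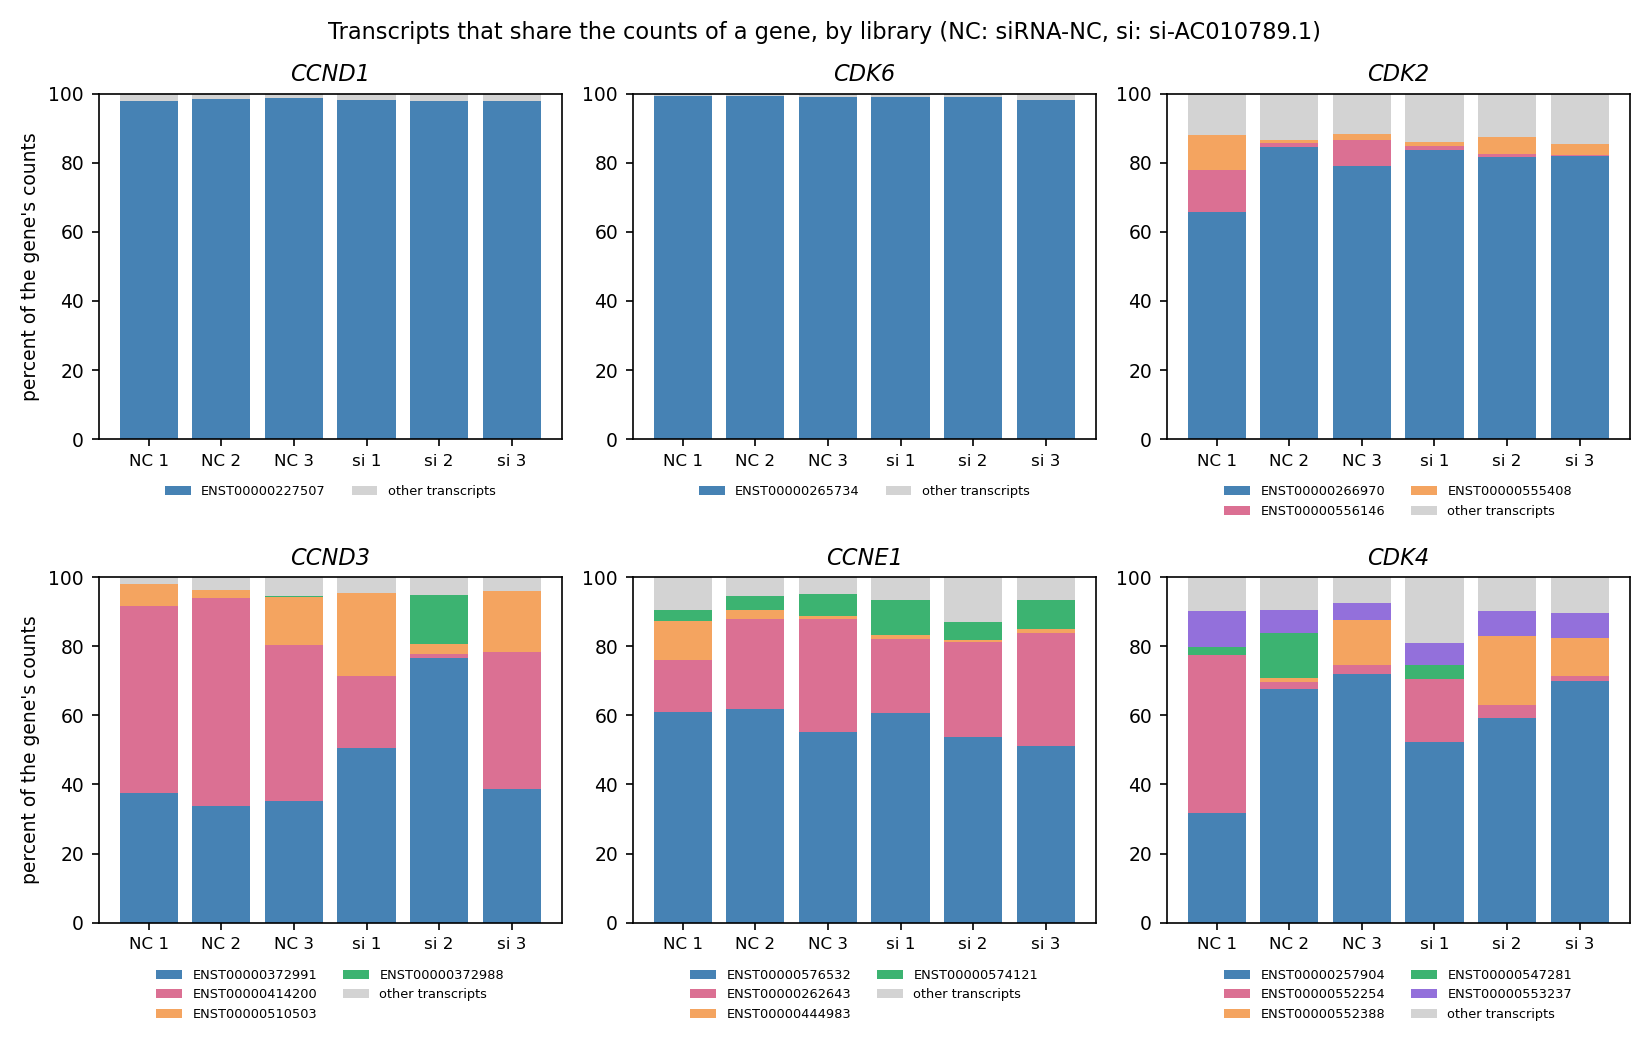
Percent of a gene's counts (vertical axis, 0 to 100) held by each transcript that reached 10% in any library, for CCND1, CDK6, CDK2, CCND3, CCNE1 and CDK4 in the 6 libraries; grey is the rest. CCND1 and CDK6 come from 1 transcript, while CDK4 in replicate 1 of siRNA-NC, and less so of si-AC010789.1, and CCND3 in si-AC010789.1 replicate 2 are divided unlike the other libraries.

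The inhibitors of the G1 kinases were the first of 5 lists of related genes. Of 7 inhibitors tested, 1 fell and 0 rose, beside 0.698% of all genes tested called lower and 0.284% called higher. Log2 fold changes were negative for 5 of 7 (median -0.18). CDKN1A, which encodes p21, an inhibitor of cyclin-CDK complexes, fell from 145 ± 11.1 to 103 ± 2.85 CPM, with a log2 fold change of -0.48 (SE 0.068, adjusted p 0.0401). It stood at 132.9, 146.1 and 155.0 CPM in the controls and at 102.4, 106.7 and 101.4 CPM after silencing, without overlap. The call for CDKN1A was lost without any 1 of the 6 libraries (log2 fold changes of -0.54 to -0.43, adjusted p 0.0637 to 0.141). CDKN2B, which encodes the CDK4 and CDK6 inhibitor p15, had a log2 fold change of -0.22 (adjusted p 0.164), also without overlap. CDKN2A, which encodes p16 and p14ARF, had 0.31 (SE 0.265), with 70.4 to 151.0 CPM among the controls. CDKN1B (p27) had -0.18, CDKN1C (p57) 0.07, CDKN2C (p18) -0.19 and CDKN2D (p19) -0.15, with adjusted p of 0.371 to 0.819.

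Of 11 other pocket protein, E2F and DP genes, 0 rose and 0 fell, where 0.982% of all genes tested passed the adjusted threshold. The median log2 fold change was 0.03. The pocket protein genes RBL1 and RBL2 had log2 fold changes of 0.10 and -0.06. The activator genes E2F2 and E2F3 had -0.0060 and 0.03, and the genes E2F4, E2F5 and E2F6 of the repressor class had -0.06, 0.15 and -0.10. The atypical repressor genes E2F7 and E2F8 had -0.12 and 0.08. The dimerization partner genes TFDP1 and TFDP2 had 0.32 and 0.06. The adjusted p of these 11 genes was 0.423 or more in edgeR, and the groups overlapped for each of them.

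Of 20 genes for the activation and turnover of G1 cyclins and kinases, 0 passed the adjusted threshold, which 0.982% of all genes tested did. In direction, 10 were higher and 10 lower. CDC25A, a phosphatase that activates CDK2, stood at 38.4 ± 0.729 and 63.3 ± 12.2 CPM, a log2 fold change of 0.72 (SE 0.136, adjusted p 0.0746), and si-AC010789.1 replicate 1 was the highest library at 77.4 CPM. CKS1B, a cofactor in the degradation of p27, had a log2 fold change of 0.34 (adjusted p 0.123). The ubiquitin ligase genes CUL4B and SKP2 had -0.09 and -0.12 (adjusted p 0.373 and 0.387).

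Of 6 S and M phase cyclins and kinases, CCNA1 was not listed, and 0 of the 5 tested passed, beside 0.982% of all genes. CCNA2, the partner of CDK2 in S phase, stood at 124 ± 2.48 and 101 ± 4.06 CPM, a log2 fold change of -0.30 (SE 0.051, adjusted p 0.0639), without overlap. The mitotic genes CCNB1, CCNB2 and CDK1 had log2 fold changes of 0.11, 0.19 and -0.06.

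Of 30 E2F target genes, 1 rose and 0 fell, beside 0.284% of all genes tested called higher and 0.698% called lower. In direction, 18 were higher and 12 lower, with a median log2 fold change of 0.07. MYBL2, a transcription factor gene that E2F controls, rose from 361 ± 4.68 to 447 ± 3.43 CPM, with a log2 fold change of 0.31 (SE 0.0355, adjusted p 0.0223). The call for MYBL2 was lost without any 1 of the 6 libraries (0.30 to 0.32, adjusted p 0.0735 to 0.105). The thymidine kinase gene TK1 had 0.49 (adjusted p 0.0969) and CCNF, a cyclin-like subunit of a ubiquitin ligase, had 0.26 (adjusted p 0.122). PCNA, the sliding clamp of DNA replication, had -0.15 (adjusted p 0.164), and UHRF1, a DNA methylation maintenance factor, had -0.17 (adjusted p 0.219). Over the 5 lists together, 2 of 73 genes tested passed beside 0.982% of all genes, 39 were higher and 34 lower. With DESeq2, 6 of the 70 list genes with an adjusted p passed (MYBL2, CDKN1A, CCNA2, CDC25A, TK1 and CKS1B), beside 5.42% of all genes with one.

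The genes whose log2 CPM followed CCND1 most closely over the 6 libraries were LLGL2 (Pearson r 0.997), DYNLL2 (0.996), HTT (0.996), AP002414.4 (0.996) and TMEM8A (0.995). LLGL2 is a cell polarity gene, DYNLL2 encodes a dynein light chain and HTT encodes huntingtin. AP002414.4 had only 16 to 26 counts a library and an adjusted p of 0.452 in edgeR. Of 13749 genes compared, 11 had an r of at least 0.99. The 6 libraries fall into 2 groups that CCND1 separates, so these values describe the same contrast again. LLGL2 stood at 121 ± 6.31 and 144 ± 3.10 CPM and HTT at 113 ± 4.74 and 133 ± 4.86 CPM, both without overlap and with adjusted p of 0.104 and 0.110 in edgeR.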

How the data were processed

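RNA of cells labelled HCT116 with siRNA-NC or si-AC010789.1 was sequenced from 3 libraries per group, on an Illumina NovaSeq. The deposited values are counts, a whole number for each Ensembl transcript in each library, which the authors had not normalized. The submitters' processing notes name CASAVA 1.8, TopHat2 2.0.6 and the builds GRCh38 and mm10, with no role given. The counting program and its use of strand are not given in the sources used here. The study ran Cuffdiff, which needs alignments and was not run.

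Transcripts were joined to GENCODE v29 (GRCh38) by identifier, which matched 98782 of 98886, and 104 stayed out of the sums (at least 99.9% of the counts of a library were matched). Gene sums were tested with edgeR 4.0.16 (quasi-likelihood test without covariates, TMM, and filterByExpr set to at least 10 counts and a total of 15) in R 4.3.3, with Benjamini-Hochberg adjustment over all genes tested and a threshold of 0.05. Transcripts were tested in the same way. A level of 3 counts corresponds to 0.223 to 0.266 CPM. Alternatives used DESeq2 1.42.0 and limma 3.58.1. Sequences, shares and exact permutation tests were handled in Python 3.11.15 with scipy 1.17.1. The gene test was run on simulated counts with a common spread for all genes. That check required only that large changes be found, so it does not bear on calls of the size reported here.

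The genes, the 5 related lists and the cell type markers were chosen with earlier results of these data known. The text names all 10 genes, all CDK inhibitors and all pocket protein, E2F and DP genes. Of each other list it names every gene with an adjusted p under 0.05 and the 2 genes with the smallest p in each direction. It also names the 5 genes most like CCND1 by Pearson r and each transcript with at least 10% of its gene's counts in any library. The CDK2 retained-intron share and the genes that overlap a named gene were chosen after their values were seen. DESeq2 calls are named for the lists.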

Additional observations from a re-analysis of the deposited data

How the results depend on the processing

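The direction of the 9 genes tested was the same in all 126 alternative values, but sizes moved, as the values given for CDK2, CCND3 and CDK4 show, and the calls were close to the threshold. CCND1 lost the adjusted threshold with quantile normalization (0.42, adjusted p 0.0553), no filter on low counts (0.41, 0.0872), protein-coding transcripts only (0.42, 0.0822) and length-scaled sums (0.42, 0.101), and CDK6 with length-scaled sums (-0.39, 0.105). Without each library in turn, CCND1 ranged from 0.37 to 0.46 and CDK6 from -0.46 to -0.40, neither past the threshold. CCND1 and CDK6 kept their calls with DESeq2, with DESeq2 size factors in edgeR and with a filter of 1 CPM. The number of the 9 genes that passed was 1 with quantile normalization, 1 with no filter, 1 with protein-coding transcripts, 0 with length-scaled sums and 0 without each library in turn. Over all genes, 135 passed in edgeR, 528 with DESeq2, 134 with quantile normalization and 69 with no filter. With protein-coding transcripts 56 passed, with length-scaled sums 1, and without each library 12 to 37. Of the list genes, 2 passed in edgeR, 6 with DESeq2, 2 with quantile normalization and 1 with no filter. With protein-coding transcripts 1 passed, with length-scaled sums 0, and without each library 0. Of the transcripts of the 10 genes, 0 passed in edgeR, 2 with DESeq2 and 1 with quantile normalization. The share of all transcripts that passed with quantile normalization is not given here. The causes were not tested.

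With the replicate block, CCND1 was 0.42 (adjusted p 0.147) and CDK6 -0.43 (adjusted p 0.152), and 0 of the 9 genes, 0 list genes and 0 of all genes passed. The labels give only shared numbers, and the study, which speaks of cell generations, does not say that libraries of the same number share one. Deviations of same-numbered libraries correlated at 0.111, 0.0109 and 0.0164, and only replicate 1 was best matched with its own number, so the numbers were not taken as pairs. These correlations are over gene sums and do not settle the matter for single transcripts. The CDK4 transcript ENST00000552388 gave 0 counts in replicate 1 of both groups, and ENST00000552254 was highest there (469 and 183 counts). ENST00000552862, also of CDK4, had counts only in replicate 3 of each group (9 and 11). The CCND3 transcript ENST00000511686 had counts only in replicate 2 of each group (5 and 5). In contrast, the CDK4 transcript ENST00000547281 gave 159 counts in siRNA-NC replicate 2 and 0 in si-AC010789.1 replicate 2. How many of all transcripts follow the replicate numbers was not counted.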
